A study of Mus musculus with 4 samples.

Results

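In a sort for live cells with CD45 on their surface from hearts of newborn mice, 175 of 23961 cells were taken as endothelial by their RNA. CD45, encoded by Ptprc, is a surface protein of leukocytes, so endothelial cells are not what such a sort is made to keep. The cells were chosen by a rule on their own RNA. A cell had to pass quality control (at least 500 UMIs, or unique molecular identifiers, each a counted RNA molecule; at least 200 genes; at most 10% mitochondrial UMIs) and to hold at least 5 UMIs in all of Cdh5, Cldn5, Egfl7, Emcn and Tie1. It also had to hold fewer than 10 UMIs of the macrophage genes C1qa, C1qb and C1qc per 10000 UMIs, and at most 1 UMI of the lymphocyte genes Cd3d, Cd3e, Cd3g, Cd79a and Cd79b.

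Endothelial cells line every blood and lymph vessel, and as endocardium the chambers of the heart. In heart muscle most of them form capillaries, which hand fatty acids and oxygen to the cardiomyocytes, while arterial, venous, endocardial and lymphatic endothelium each express genes of their own. They also present peptides on MHC class I molecules to CD8 T cells and, under inflammation, can display PD-L1 (Cd274), a ligand of the inhibitory T cell receptor PD1 (Pdcd1).

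The mice were of the C57BL/6 strain and carried a deletion of PD1 in homozygous (KO) or heterozygous (Het) form, so no group had both wild-type copies. Hearts underwent myocardial infarction (MI) or sham surgery at postnatal day 2 and were taken 7 days later. Ventricles without atria were digested with enzymes, red cells were lysed, and live CD45-positive cells were sorted and sequenced with 10x 3' chemistry, which reads the 3' end of each RNA. The groups are written here as labelled: KO_MI, Het_MI, KO_sham and Het_sham. Each is 1 library, and the labels do not say how many animals a library holds, so differences between groups lack any check by replicates and were not tested. Brackets give 95% intervals of counting error only, and UMIs of 1 cell are not independent samples of a group. The genotype could not be checked in these cells, since Pdcd1 had 0 UMIs in all 175. In the other cells it stood at 6.32, 2.20, 1.17 and 1.30 CPM (UMIs per 1000000 UMIs) in KO_MI, Het_MI, KO_sham and Het_sham. A 3' tag checks the deletion only if it lies in the deleted stretch, which the labels do not give. The groups are therefore the libraries labelled so.

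The endothelial cells numbered 63 in KO_MI, 32 in Het_MI, 44 in KO_sham and 36 in Het_sham. Their median depth was 6776 UMIs, against 7518.5 in the other 23786 cells, and their total was 689329, 611321, 622069 and 474883 UMIs in the same order. Depth was uneven: 16 cells above 30000 UMIs (4, 6, 3 and 3 in that order) held 38.5%, 75.1%, 48.3% and 42.6% of the endothelial UMIs of their library. Sums over a library therefore lean on a few cells, most of all in Het_MI, and means or medians over cells, or the share of UMIs in 1 cell, are given beside sums that lean on them most. Between 7 and 16 barcodes were shared by any pair of libraries, and no endothelial cell had its barcode among the kept cells of another library.

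The 5 marker genes are described first; since they chose the cells, their levels are no finding. Cdh5, the cadherin of endothelial adherens junctions (chr8:104101625-104144511 of GRCm38), stood at 1265 CPM in KO_MI, 1314 in Het_MI, 1339 in KO_sham and 1436 in Het_sham. Cldn5, the main claudin of endothelial tight junctions (chr16:18776847-18778262), stood at 929.9 CPM in KO_MI, 889.9 in Het_MI, 1169 in KO_sham and 973 in Het_sham. The summed cells of the 4 libraries held similar levels of both. Egfl7, a secreted endothelial protein (chr2:26580014-26593120), stood at 695 CPM in KO_MI, 549.6 in Het_MI, 567 in KO_sham and 733 in Het_sham. Emcn, the sialoglycoprotein endomucin (chr3:137341067-137432185), stood at 367 CPM in KO_MI, 407 in Het_MI, 395 in KO_sham and 314 in Het_sham. Tie1, a receptor tyrosine kinase of the angiopoietin pathway (chr4:118471191-118490061), stood at 249.5 CPM in KO_MI, 278 in Het_MI, 243 in KO_sham and 259 in Het_sham. Over all 5 genes a cell held a median of 24 marker UMIs, and 144 of 175 held 12 or more. At the threshold, 9 cells held exactly 5 and 16 cells otherwise fit to enter held 4, while 21508 of all kept cells held 0. Of 244 cells with at least 5, the C1q limit removed 53 and the lymphocyte limit 39, of which 23 failed both. The highest C1q level inside was 8.13 per 10000 UMIs and the lowest outside 11.995.

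**Figure D1:**
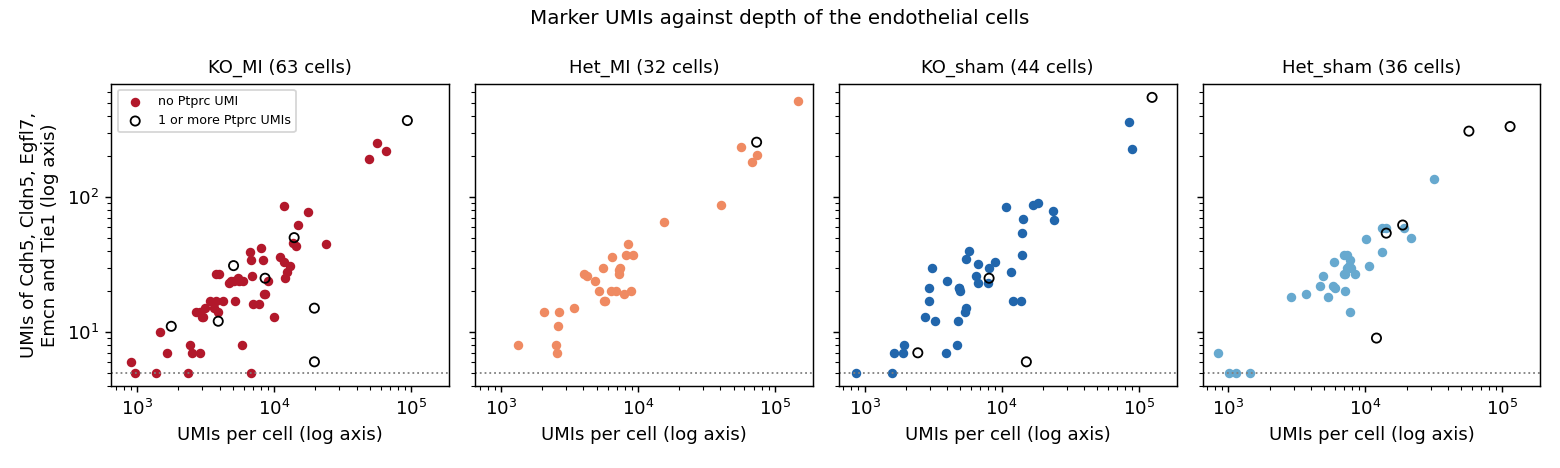
Each point is 1 endothelial cell, with its total UMIs on the horizontal axis and the summed UMIs of the 5 marker genes on the vertical axis, both on log axes, in 1 panel per library. Marker UMIs follow depth in every panel, black open circles mark the cells with a Ptprc UMI, and the dotted line is the threshold of 5.

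CD45 RNA itself was scarce in the cells that the rule kept. The C1q and lymphocyte limits remove cells with leukocyte RNA, so the rule itself can lower the values below. Ptprc had a UMI in 18 of 175 endothelial cells (10.3% [6.21 to 15.8], exact Clopper-Pearson), against 85.5% of the other cells, which are mostly leukocytes. After random thinning of each cell to 2000 UMIs these came to 3.77% of 159 cells and 55.6% of 21961. The cells with a Ptprc UMI numbered 8 in KO_MI, 1 in Het_MI, 4 in KO_sham and 5 in Het_sham. Summed, Ptprc came to 17.5 CPM in the endothelial cells and 444 CPM in the other cells.

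The label was checked against endothelial genes. Leaving aside the 5 markers, 15 of 15 genes of a pan-endothelial list were at least 1.5-fold higher in the endothelial cells than in the other cells, from 20.6-fold (Pecam1) to 478-fold (Sox17); over all 7311 genes with at least 30 UMIs in the endothelial cells, 32.6% were higher and 13.9% lower by that fold. Because the cells were chosen on endothelial RNA, this contrast is a description. Pecam1, the adhesion molecule CD31, stood at 627 CPM in KO_MI, 716 in Het_MI, 682 in KO_sham and 889 in Het_sham, against 34.8 CPM in the other cells. Kdr, the main VEGF receptor, stood at 662 CPM in KO_MI, 790.1 in Het_MI, 759 in KO_sham and 1028 in Het_sham, against 3.31 CPM in the other cells. Both genes were present in every library, highest in Het_sham.

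The genes outside the rule with the highest ratio to the other cells were genes of endothelium, many of them of capillaries. Fabp4, a carrier of fatty acids, stood at 17918 CPM in 171 cells and was 318-fold higher than in the other cells, and Gpihbp1, which holds lipoprotein lipase on the capillary wall, stood at 1304 CPM in 163 cells (404-fold). Cav1, the coat protein of caveolae, stood at 1674 CPM in 170 cells (302-fold). The highest ratio among these 20 belonged to Sox17, a transcription factor of arterial and embryonic endothelium, at 189 CPM in 83 cells (478-fold). Robo4, an endothelial guidance receptor, and Ptprb, the phosphatase that acts on VE-cadherin and Tie2, were 448-fold and 329-fold higher. So were the surface proteins Adgrf5 (348-fold), Adgrl4 (299.8-fold), Podxl (335-fold), Clec14a (311-fold), Ly6c1 (279-fold) and the apelin receptor Aplnr (293-fold). Prnd, a prion-like protein, Rbp7, a retinol-binding protein, the transcription factors Sox7 and Wt1, the matrix protein Mmrn2, and Cyyr1, Stmn2 and Nav3 completed the 20, at 279.6-fold to 426-fold. Stmn2, a tubulin-binding protein, differed from the rest in that 30 cells carried it.

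By vessel type, capillary genes dominated. The 14 genes of the capillary list summed to 24855 CPM in KO_MI, 19563 in Het_MI, 29937 in KO_sham and 26331 in Het_sham. Fabp4 alone gave 18367 CPM in KO_MI, 13098 in Het_MI, 22189 in KO_sham and 17874 in Het_sham. The list and Fabp4 were both lowest in Het_MI and highest in KO_sham. The 14 arterial genes summed to 1628 CPM in KO_MI, 1925 in Het_MI, 778 in KO_sham and 1529 in Het_sham, the 10 venous genes to 714 CPM in KO_MI, 746 in Het_MI, 672 in KO_sham and 781 in Het_sham and the 13 endocardial genes to 189 CPM in KO_MI, 332 in Het_MI, 305 in KO_sham and 96.9 in Het_sham. By means over cells the arterial levels were 1083, 2024, 802 and 1231 CPM and the endocardial levels 157, 181, 228 and 98.0 CPM in KO_MI, Het_MI, KO_sham and Het_sham. KO_sham was lowest for arterial and Het_sham for endocardial genes on both scales, but 1 cell held 64.0% of the endocardial UMIs in Het_MI and 60% in KO_sham.

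The capillary genes did not all follow Fabp4. Gpihbp1 stood at 1414 CPM in KO_MI, 977 in Het_MI, 1575 in KO_sham and 1209 in Het_sham, and Rgcc, a cell cycle regulator rich in capillaries, at 644 CPM in KO_MI, 489 in Het_MI, 862 in KO_sham and 712 in Het_sham. Both were lowest in Het_MI, as Fabp4 was. Cd36, the fatty acid translocase, stood at 1299.8 CPM in KO_MI, 1691 in Het_MI, 1707 in KO_sham and 1864 in Het_sham, and Mgll, which splits monoglycerides, at 749 CPM in KO_MI, 709.9 in Het_MI, 760.4 in KO_sham and 1063 in Het_sham. Both were highest in Het_sham. Cavin2, a partner of caveolin, stood at 955 CPM in KO_MI, 929 in Het_MI, 1179.9 in KO_sham and 1354 in Het_sham, and Fabp5, a second fatty acid carrier, at 2517 CPM in KO_MI, 1955 in Het_MI, 2955 in KO_sham and 1975 in Het_sham.

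Defining genes of the rarer vessel types sat in few cells. Gja4, a connexin of arteries, had a UMI in 22 cells, Gja5, the other arterial connexin, in 8, and Nr2f2, a transcription factor of veins, in 42. Npr3, a natriuretic peptide receptor that marks endocardium, was found in 3 cells, 1 of Het_MI and 2 of KO_sham. Of lymphatic genes, Pdpn, Ccl21a and Reln had 0 UMIs, Mmrn1 had 1, and Prox1, the transcription factor that specifies lymphatic fate, had a UMI in 20 cells (11.4%), against 2.35% of the other cells. The lymphatic sum of 324 CPM came mainly from Nts, the neuropeptide neurotensin, at 268 CPM in KO_MI, 240.5 in Het_MI, 279.7 in KO_sham and 187 in Het_sham.

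**Figure D2:**
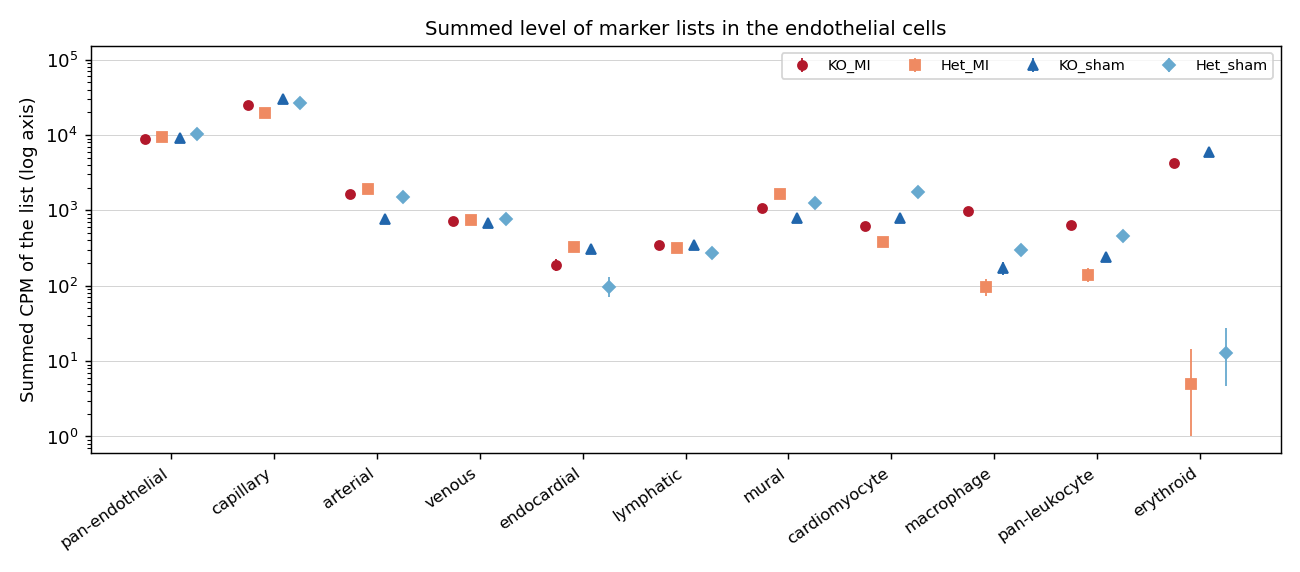
The summed level of 11 marker lists in the endothelial cells, in CPM on a log axis, is drawn per library, and bars are 95% Poisson intervals of the counts. Capillary genes stand above every other list, arterial genes are lowest in KO_sham, and macrophage and erythroid RNA differ most between libraries.

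RNA of other cell types was present, and its level differed between libraries. Pericyte and smooth muscle (mural) genes, 10 of 10 detected, summed to 1076 CPM in KO_MI, 1664 in Het_MI, 799 in KO_sham and 1247 in Het_sham. By means over cells they were at 407, 439, 369 and 206 CPM, with 87.7% of the UMIs of Het_sham in 1 cell. They stood at 1998 CPM in the 16 cells above 30000 UMIs and 338 CPM in the others. Cardiomyocyte genes, 9 of 9 detected, summed to 628 CPM in KO_MI, 383 in Het_MI, 794 in KO_sham and 1749.9 in Het_sham. Macrophage genes, whose C1q members the rule limits, summed to 976 CPM in KO_MI, 96.5 in Het_MI, 170.4 in KO_sham and 297 in Het_sham, and the 10 pan-leukocyte genes to 639.8 CPM in KO_MI, 139 in Het_MI, 241 in KO_sham and 457 in Het_sham. KO_MI was highest in both lists and Het_MI lowest, but in KO_MI 1 cell held 79.3% of the macrophage and 58.5% of the pan-leukocyte UMIs, so that order rests on single cells. In Het_sham 1 cell held 70.9% of the macrophage UMIs. Erythroid genes summed to 4253 CPM in KO_MI, 4.91 in Het_MI, 5999 in KO_sham and 12.6 in Het_sham, nearly all of it in 4 cells of KO_MI and KO_sham (92.4% and 99.9% in 1 cell each). Of 7 neutrophil genes Retnlg, Mmp9, Cxcr2 and Ly6g had 0 UMIs, and of 12 T and NK cell genes Cd3e, Klrb1c and Ncr1 had 0. The rule limits Cd3d, Cd3e and Cd3g, so the 0 of Cd3e is no finding. The part of this RNA in the differences between libraries was not tested beyond the values given with each result.

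Clustering the 175 cells without the 5 markers gave 6 clusters, whose leading genes describe how the cells vary. None is named as a vessel type, because no cluster had 3 fixed markers of 1 type and none of another in its lead. Cluster 1 (58 cells) was led by Fat4, Btnl9 and Aplnr, with capillary genes at 32667 CPM against 23881 CPM in the rest. Cluster 5 (22 cells) was led by Mgp and Eln, genes of elastic vessel walls, with Fbln2, Fbln5, Stmn2, Vwf and the pericyte gene Rgs5. It held 3318 CPM of arterial, 821 CPM of endocardial and 1802 CPM of mural genes, against 913, 73.2 and 155 CPM in the rest. Clusters 4 (22 cells; Hist1h1b, Top2a, Mki67) and 6 (11 cells; Mcm2, Dtl, Lig1) were led by genes of mitosis and of DNA replication. Cluster 3 (22 cells) was led by Smurf1, Mdm2, Iigp1 and Cxcl1. Cluster 2 (40 cells) was led by Pim1 and held 901 CPM of pan-leukocyte genes against 208 CPM in the rest, with 9 of the 18 cells with a Ptprc UMI. Cells of all 4 libraries were found in clusters 1 to 5. At a finer resolution of 1, a cluster of 12 cells with a median of 61514.5 UMIs was led by Aspn, Col3a1, Rgs5 and Kcnj8, genes of fibroblasts and pericytes.

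As a share of kept cells, endothelial cells made up 0.887% [0.682 to 1.13] in KO_MI, 0.631% [0.432 to 0.889] in Het_MI, 0.687% [0.499 to 0.921] in KO_sham and 0.670% [0.469 to 0.926] in Het_sham. The ratio of shares was 1.41 [0.905 to 2.22] for KO_MI over Het_MI, 0.942 [0.566 to 1.56] for Het_MI over Het_sham, 1.29 [0.865 to 1.94] for KO_MI over KO_sham and 1.03 [0.645 to 1.64] for KO_sham over Het_sham. Every interval includes 1, so a difference in share was not detectable at this depth. The CD45 gate sets these shares, which are not those of the heart.

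Summed, MHC class I genes were higher in KO_MI than in the 3 other libraries. The 13 genes of the list, the class I chains with their light chain B2m and the genes that cut and load peptides, summed to 4127 CPM in KO_MI, 1803 in Het_MI, 1509 in KO_sham and 1817 in Het_sham. In KO_MI over Het_MI the median log2 ratio of the 13 was 1.14, with 8 at least 1.5-fold higher and 1 lower. Over all 5384 genes with at least 30 UMIs in these libraries, 7.24% were higher and 19.3% lower, with a median of −0.16. In KO_MI over KO_sham, which shares the KO_MI library, the median was 1.30 with 9 of 13 higher and 0 lower, beside 7.29% higher and 11.4% lower of 5338 genes and a median of −0.08. The other comparisons gave 0.01 over 10 genes for Het_MI over Het_sham, where 0 genes were higher and 1 lower (10.1% and 9.43% of 5025 genes), and −0.46 over 9 genes for KO_sham over Het_sham, where 0 were higher and 2 lower (8.06% and 13.4% of 4953 genes).

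Most of the class I UMIs came from the classical chains and B2m. H2-K1 (chr17:33996017-34000347 of GRCm38) stood at 947 CPM in KO_MI, 272 in Het_MI, 211 in KO_sham and 286 in Het_sham, a log2 ratio of 1.80 [1.55 to 2.06] for KO_MI over Het_MI and 2.17 [1.90 to 2.45] for KO_MI over KO_sham. H2-D1 (chr17:35262730-35267499) stood at 1236 CPM in KO_MI, 559 in Het_MI, 502 in KO_sham and 571 in Het_sham, with ratios of 1.14 [0.96 to 1.33] and 1.30 [1.11 to 1.49]. B2m (chr2:122147686-122153083), which lies outside the MHC locus, stood at 1165 CPM in KO_MI, 530 in Het_MI, 468 in KO_sham and 484 in Het_sham, with ratios of 1.14 [0.95 to 1.33] and 1.32 [1.12 to 1.51]. KO_MI was highest in all 3 genes, and the other 3 libraries lay close together. The related chains H2-Q7, at 129 CPM in KO_MI, 21.3 in Het_MI, 14.5 in KO_sham and 19.0 in Het_sham, and H2-Q6, at 66.7 CPM in KO_MI, 8.18 in Het_MI, 1.61 in KO_sham and 2.11 in Het_sham, had ratios of 2.60 [1.75 to 3.57] and 3.03 [1.70 to 4.72] for KO_MI over Het_MI. H2-Q6 rests on 46 UMIs in KO_MI and 1 to 5 in each other library, and reads of these near-identical chains can be split between them by the counting, so the values of single H2 genes are uncertain.

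The chains H2-Q4, H2-T22 and H2-T23 were not higher in KO_MI than in Het_MI. H2-Q4 stood at 58.0 CPM in KO_MI, 60.5 in Het_MI, 27.3 in KO_sham and 42.1 in Het_sham, with ratios of −0.06 [−0.74 to 0.62] for KO_MI over Het_MI and 1.09 [0.23 to 1.998] for KO_MI over KO_sham. H2-T23, which encodes the ligand of the NK cell receptor CD94/NKG2, stood at 26.1 CPM in KO_MI, 45.8 in Het_MI, 32.2 in KO_sham and 44.2 in Het_sham (−0.81 [−1.75 to 0.09] for KO_MI over Het_MI). Among the genes that make and load peptides, the immunoproteasome subunits Psmb8, at 178 CPM in KO_MI, 80.2 in Het_MI, 83.6 in KO_sham and 131 in Het_sham, and Psmb9, at 72.5 CPM in KO_MI, 17.99 in Het_MI, 20.9 in KO_sham and 25.3 in Het_sham, were higher in KO_MI than in Het_MI, by 1.15 [0.67 to 1.66] and 2.01 [1.05 to 3.10]. Tap1, a subunit of the peptide transporter, stood at 60.9 CPM in KO_MI, 34.4 in Het_MI, 17.7 in KO_sham and 33.7 in Het_sham (0.83 [0.04 to 1.66]), while for Tap2 (0.41 [−0.41 to 1.26]) and Tapbp (0.04 [−0.53 to 0.62]), its partner subunit and the tapasin that bridges it to class I chains, the intervals include 0.

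**Figure D3:**
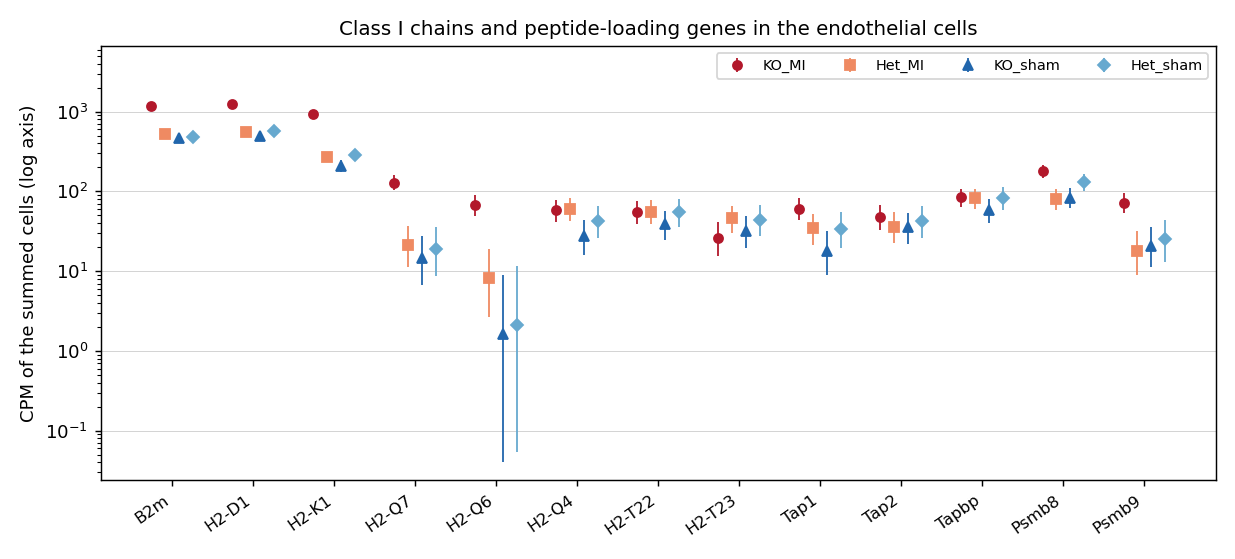
The level of each of the 13 class I genes in the summed endothelial cells is drawn per library, in CPM on a log axis, with 95% Poisson intervals. KO_MI stands above the other libraries for B2m, H2-D1, H2-K1, H2-Q7, H2-Q6, Psmb8, Psmb9 and Tap1, and below both Het libraries for H2-T23.

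The higher level was spread over the KO_MI cells. Per cell, the class I sum had a lowest, median and highest value of 1279, 3915 and 13480.4 CPM in KO_MI, 0, 1566 and 4871 in Het_MI, 0, 1382 and 6166 in KO_sham, and 513, 1674 and 5823 in Het_sham. Of the 63 KO_MI cells, 59 lay above the Het_MI median and 61 above the KO_sham median, while 3 of 32 Het_MI cells and 2 of 44 KO_sham cells lay above the KO_MI median. The ranges of the libraries overlap. In each of clusters 1 to 5 the KO_MI cells had the highest median, from 2215 to 6045 CPM, against 794 to 3292 CPM over the other libraries, from 1 to 18 cells each.

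**Figure D4:**
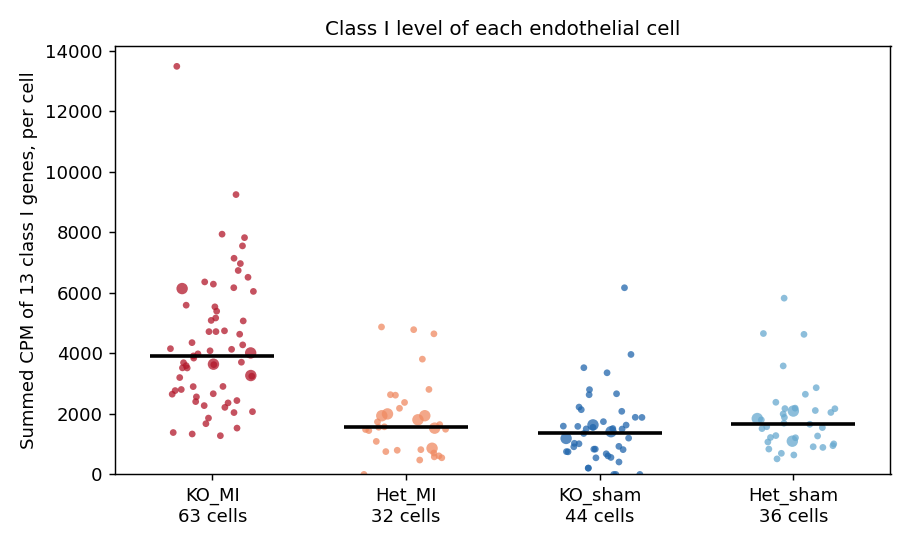
Each point is the summed CPM of the 13 class I genes in 1 endothelial cell, with larger points for cells above 30000 UMIs and a bar at the median of the library. Most KO_MI cells lie above the medians of the other 3 libraries, and the ranges overlap.

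Class I RNA was also higher in the KO_MI library outside the endothelial cells, by less. For the same genes the other cells had medians of 0.54 for KO_MI over Het_MI and 0.46 for KO_MI over KO_sham, and their class I sums were 6018, 4444, 4259 and 4240.2 CPM in KO_MI, Het_MI, KO_sham and Het_sham. For H2-K1 the log2 ratio of KO_MI over Het_MI was 1.80 in endothelial cells and 0.65 in the other cells, for H2-D1 1.14 and 0.40, and for B2m 1.14 and 0.29. Leukocytes carry more class I RNA than endothelial cells, and the sum of pan-leukocyte genes was highest in KO_MI. Without the cells that held a Ptprc UMI the median over the list was 0.96 for KO_MI over Het_MI and 1.45 for KO_MI over KO_sham. Without the 12 cells with 10 or more pan-leukocyte UMIs per 10000 it was 1.08 and 1.33.

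Sex and the KO_MI library cannot be told apart. Xist RNA with no Y-linked UMI, as in female cells, was found in 60 of 63 cells of KO_MI, 3 of 32 of Het_MI, 16 of 44 of KO_sham and 8 of 36 of Het_sham, and a Y-linked UMI in 0, 17, 14 and 13. The class I sum could be split by these RNAs inside the other libraries. It was 1699 CPM in the Xist cells and 1169.7 CPM in the Y-linked cells of KO_sham, 1524 and 1889 CPM in Het_sham, and 1648 and 1808 CPM in Het_MI, where the Xist cells number 3. All lie below the 4123 CPM of the Xist cells of KO_MI. Among Xist cells alone the median over the list was 1.10 for KO_MI over KO_sham and 0.60 for KO_MI over Het_MI.

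Because 8 class I genes were higher together in KO_MI than in Het_MI, the DNA before the starts of 4 of them is shown. Interferon regulatory factors bind an element whose core is written here as AANNGAAA, where N is any base. In the RefSeq table of GRCm38.p6 promoters (300 bases from 250 before to 50 after a start), this core was found on either strand in 23.9% of 32851 promoters, and in 8 of the 12 class I genes in the table: B2m, H2-K1, H2-D1, H2-Q4, H2-Q6, H2-Q7, H2-T22 and H2-T23. Tap1, Tapbp, Psmb8 and Psmb9 had no match in this window, and no start was matched for Tap2. The 250 bases before the start are printed for B2m and for H2-K1, H2-D1 and H2-Q7, the heavy chains with the most UMIs in KO_MI, on the gene's strand from 5′ to 3′, with matches in capitals. A match is a run of letters, not a bound site. H2-Q4, H2-T22 and H2-T23 hold it and were not higher in KO_MI than in Het_MI. H2-T22 stood at 55.1 CPM in KO_MI, 55.6 in Het_MI, 38.6 in KO_sham and 54.8 in Het_sham, and the levels of the others are given above. Tap1, Psmb8 and Psmb9 were higher in KO_MI than in Het_MI without a match. The stretches of H2-K1, H2-D1 and H2-Q7 are much alike, so their matches are not independent.
B2m (chr2:122147437-122147686, plus strand): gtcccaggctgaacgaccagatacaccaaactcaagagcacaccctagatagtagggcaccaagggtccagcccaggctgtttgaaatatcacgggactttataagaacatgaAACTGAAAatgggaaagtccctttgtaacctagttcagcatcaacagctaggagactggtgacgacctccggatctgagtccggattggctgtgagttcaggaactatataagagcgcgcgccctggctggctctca
H2-K1 (chr17:34000348-34000597, minus strand): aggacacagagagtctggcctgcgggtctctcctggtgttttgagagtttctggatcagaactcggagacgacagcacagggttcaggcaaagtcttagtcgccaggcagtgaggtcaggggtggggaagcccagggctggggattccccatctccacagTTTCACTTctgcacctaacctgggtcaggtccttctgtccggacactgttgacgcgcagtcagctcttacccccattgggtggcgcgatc
H2-D1 (chr17:35262844-35263093, plus strand): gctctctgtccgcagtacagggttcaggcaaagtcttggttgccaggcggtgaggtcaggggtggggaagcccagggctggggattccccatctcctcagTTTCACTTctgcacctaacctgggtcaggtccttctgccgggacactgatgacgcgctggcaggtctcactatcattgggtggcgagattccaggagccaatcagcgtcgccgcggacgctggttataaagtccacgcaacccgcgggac
H2-Q7 (chr17:35438905-35439154, plus strand): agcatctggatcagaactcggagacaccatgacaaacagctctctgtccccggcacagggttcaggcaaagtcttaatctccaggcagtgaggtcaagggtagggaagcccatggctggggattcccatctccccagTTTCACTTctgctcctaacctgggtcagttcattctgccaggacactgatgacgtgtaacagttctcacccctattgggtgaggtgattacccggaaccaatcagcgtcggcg
The match begins 137 bases before the start in B2m, 90 in H2-K1, 150 in H2-D1 and 113 in H2-Q7, and is read on the opposite strand in the last 3.

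In the summed cells, other interferon genes differed less between KO_MI and Het_MI than the class I list did. The interferon-gamma list, which shares Tap1, Psmb8 and Psmb9 with the class I list, had a median of 0.12 over 13 genes for KO_MI over Het_MI (3 higher, 0 lower, beside 7.24% and 19.3% of all genes). These 3 higher genes were the shared ones. For KO_MI over KO_sham the median was 0.54 over 12 genes (6 higher, 0 lower, beside 7.29% and 11.4%). By means over cells this list stood at 1416, 989, 567 and 700 CPM in KO_MI, Het_MI, KO_sham and Het_sham, highest in KO_MI as for class I. Under alternative settings its median ran from 0.065 to 0.84 for KO_MI over Het_MI and from 0.32 to 1.29 for KO_MI over KO_sham. Irf1, an interferon-induced transcription factor, stood at 199 CPM in KO_MI, 248.6 in Het_MI, 170.4 in KO_sham and 183 in Het_sham. The type I interferon list had medians of −0.077 and 0.41 in these comparisons. It summed to 865 CPM in KO_MI, 767 in Het_MI, 575 in KO_sham and 1095 in Het_sham, and in KO_sham over Het_sham its median was −1.22 with 6 of 7 genes lower (13.4% of all genes), but −0.03 by means over cells. Bst2, the tetherin that holds budding viruses, stood at 411 CPM in KO_MI, 301 in Het_MI, 283 in KO_sham and 432 in Het_sham, and Isg15, a ubiquitin-like modifier, at 135 CPM in KO_MI, 106 in Het_MI, 75.6 in KO_sham and 149.5 in Het_sham. In Het_sham 1 cell held 49.3% of the Bst2 and 66.2% of the Isg15 UMIs.

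Iigp1, an interferon-induced GTPase, was higher in the MI library than in the sham library of both genotypes. It stood at 244 CPM in KO_MI, 263 in Het_MI, 83.6 in KO_sham and 75.8 in Het_sham, in 34 cells of KO_MI, 9 of Het_MI, 6 of KO_sham and 5 of Het_sham. The ratio was 1.54 [1.09 to 2.02] for KO_MI over KO_sham, 1.80 [1.27 to 2.36] for Het_MI over Het_sham and −0.11 [−0.43 to 0.21] for KO_MI over Het_MI. In Het_sham 1 cell held 80.6% of the Iigp1 UMIs, and in Het_MI 1 cell held 20% or more. Without the cells above 30000 UMIs the ratio of KO_MI over KO_sham was 2.38, and among Xist cells alone 0.86. Beside the other cells, at 7.18 CPM, endothelial cells carried 24.2-fold more of it.

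The PD1 pathway itself was barely seen. Cd274, which encodes PD-L1, stood at 4.35 CPM in KO_MI, 6.54 in Het_MI, 6.43 in KO_sham and 6.32 in Het_sham, from 3, 4, 4 and 3 UMIs. It was found in 13 of 175 endothelial cells (7.43%) and 13.4% of the other cells. Pdcd1lg2, which encodes the ligand PD-L2, and Pdcd1 were found in 0 of 175 cells. The exact interval allows a share of up to 2.09% of cells with a UMI. No difference in these genes between groups was detectable at this depth.

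In KO_MI over Het_MI, few single genes met the rule for naming, and class I genes were among them. These libraries differ in the genotype of their label and in the sex read from Xist and Y-linked RNA, which cannot be told apart. Of 1855 genes with enough counts, 34 had an interval beyond 1.5-fold (0.377% higher, 1.46% lower), and in 26 of these 1 cell held 20% or more of the UMIs of the higher library. The other 8 were H2-Q7, H2-D1 and Hist1h2bc, higher in KO_MI, and Jarid2, Ccnd2, Syne1, Dennd5b and Zbtb20, lower. Hist1h2bc, a histone H2B gene, stood at 133 CPM in KO_MI, 50.7 in Het_MI, 93.2 in KO_sham and 77.9 in Het_sham (1.40 [0.79 to 2.03]; 3.75 without the cells above 30000 UMIs). Jarid2, a partner of the Polycomb complex PRC2, stood at 45.0 CPM in KO_MI, 118 in Het_MI, 54.7 in KO_sham and 116 in Het_sham (−1.39 [−2.05 to −0.76]). Ccnd2, the cell cycle protein cyclin D2, stood at 155 CPM in KO_MI, 378 in Het_MI, 148 in KO_sham and 272 in Het_sham (−1.28 [−1.63 to −0.95]; −0.53 without the cells above 30000 UMIs). Both genes were lower in both KO libraries than in both Het libraries; in KO_sham over Het_sham the ratios were −1.08 [−1.74 to −0.44] for Jarid2, −0.88 [−1.28 to −0.48] for Ccnd2 and −1.07 [−1.75 to −0.42] for Syne1. Syne1, the nuclear envelope protein nesprin-1, stood at 50.8 CPM in KO_MI, 116 in Het_MI, 53.0 in KO_sham and 112 in Het_sham (−1.19 [−1.82 to −0.59]), with the same order of KO below Het. Dennd5b, a DENN-domain protein, stood at 78.3 CPM in KO_MI, 173 in Het_MI, 125 in KO_sham and 149.5 in Het_sham (−1.15 [−1.65 to −0.66]), but its ratio of means over cells was −0.20. Zbtb20, a transcriptional repressor, stood at 169.7 CPM in KO_MI, 339 in Het_MI, 227 in KO_sham and 248 in Het_sham (−0.996 [−1.34 to −0.66]; −0.58 by means over cells). In this comparison the trimmed mean of M-values placed the centre of all genes 0.15 away from the total-count scaling, so scaling by it adds that much to each log2 ratio; in KO_sham over Het_sham it adds 0.10. Medians between −0.15 and 0 in the lists below turn positive under it, and are read against −0.16 over all genes.

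Lists of endothelial function differed little between KO_MI and Het_MI. Basement membrane genes had a median of −0.34 over 14 genes, 3 of them lower, a share near the 19.3% of all genes. Col4a1, the main chain of collagen IV, stood at 1812 CPM in KO_MI, 2542 in Het_MI, 2066 in KO_sham and 2723 in Het_sham. Genes of the BMP and ALK1 pathway had −0.46, VEGF and angiopoietin receptors −0.14, Notch genes −0.18, junction genes −0.10 and endothelial transcription factors −0.34, beside −0.16 over all genes. Of the receptors, Flt1 stood at 537 CPM in KO_MI, 676 in Het_MI, 526 in KO_sham and 583 in Het_sham and Tek, the angiopoietin receptor Tie2, at 85.6 CPM in KO_MI, 172 in Het_MI, 138 in KO_sham and 118 in Het_sham. Tek was lower in KO_MI than in the other libraries (−1.005 [−1.49 to −0.53] over Het_MI).

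Capillary genes and genes of fatty acid handling were lower in the MI library than in the sham library of both genotypes. In Het_MI over Het_sham the capillary list had a median of −0.52 with 0 of 13 genes above 0, and 3 lower by 1.5-fold, beside 9.43% of all genes. In KO_MI over KO_sham it had −0.37, with 1 of 13 above 0 and 3 lower, beside 11.4%. Over all genes the medians were −0.02 and −0.08. Genes of fatty acid handling, which share Fabp4, Gpihbp1, Cd36, Meox2 and Tcf15 with the capillary list, had −0.38 and −0.27. Fabp4 had ratios of −0.45 [−0.49 to −0.40] and −0.27 [−0.31 to −0.24]. Car4, the carbonic anhydrase of the capillary surface, stood at 120.4 CPM in KO_MI, 81.8 in Het_MI, 206 in KO_sham and 213 in Het_sham, or −1.38 [−1.90 to −0.88] in Het_MI over Het_sham and −0.77 [−1.19 to −0.36] in KO_MI over KO_sham. Btnl9, a butyrophilin-like surface protein, stood at 171 CPM in KO_MI, 312 in Het_MI, 268 in KO_sham and 449 in Het_sham, and Meox2, a transcription factor of fatty acid uptake in heart endothelium, at 85.6 CPM in KO_MI, 108 in Het_MI, 149.5 in KO_sham and 156 in Het_sham. For the Het libraries the capillary median was −0.18 without the cells above 30000 UMIs and −0.21 by means over cells, and for the KO libraries −0.33 and −0.27. Among Xist cells alone, 3 of them in Het_MI, the median of the Het libraries was 0.14 and the ratio of Car4 −0.50. The same capillary genes, at far lower levels, had medians of −0.93 for Het_MI over Het_sham and −0.34 for KO_MI over KO_sham in the other cells.

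Of 1640 genes open to naming in Het_MI over Het_sham, 29 had an interval beyond 1.5-fold (1.16% higher, 0.61% lower), and 4 did not rest on 1 cell: Stat3, Klf4, Car4 and Ccn1. Stat3, the transcription factor of interleukin-6 signalling, stood at 144 CPM in KO_MI, 250.3 in Het_MI, 124 in KO_sham and 94.8 in Het_sham (1.40 [0.91 to 1.91] in Het_MI over Het_sham, 0.21 [−0.23 to 0.66] in KO_MI over KO_sham). Klf4, a transcription factor that shear stress induces in endothelium, stood at 366 CPM in KO_MI, 443 in Het_MI, 219 in KO_sham and 208 in Het_sham (1.09 [0.75 to 1.44] and 0.74 [0.44 to 1.05]). Klf4 was higher in both MI libraries than in both sham libraries, and Stat3 was higher in Het_MI than in the other libraries. In Het_sham 1 cell held 33.3% of the Klf4 UMIs. In the other cells the ratios of Het_MI over Het_sham were 0.46 for Stat3 and 0.34 for Klf4. Ccn1, a matricellular protein, stood at 133 CPM in KO_MI, 121 in Het_MI, 182 in KO_sham and 278 in Het_sham (−1.20 [−1.63 to −0.78] and −0.44 [−0.86 to −0.03]), and by means over cells its ratio of Het_MI over Het_sham was −2.22. Cardiomyocyte genes were lower in Het_MI than in Het_sham, 7 of 7 by 1.5-fold (9.43% of all genes), and mural genes higher, 6 of 8 (10.1%). In KO_MI over KO_sham, 16 of 1810 genes had such an interval (0.608% higher, 0.276% lower), and those that did not rest on 1 cell were Iigp1 and H2-D1.

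Arterial genes were lower in KO_sham than in Het_sham. In KO_sham over Het_sham the median of the arterial list was −1.11, with 7 of 10 genes lower by 1.5-fold and 0 higher, beside 13.4% and 8.06% of all genes. Gja4 stood at 88.5 CPM in KO_MI, 126 in Het_MI, 4.82 in KO_sham and 122 in Het_sham, in 7 cells of KO_MI, 8 of Het_MI, 2 of KO_sham and 5 of Het_sham. KO_sham was lowest, from 3 UMIs. Hey1, a Notch target of arteries, stood at 65.3 CPM in KO_MI, 90.0 in Het_MI, 27.3 in KO_sham and 114 in Het_sham. Fbln5, an elastic fibre protein, stood at 87.0 CPM in KO_MI, 98.1 in Het_MI, 3.22 in KO_sham and 29.5 in Het_sham, and Sema3g, an arterial semaphorin, at 34.8 CPM in KO_MI, 40.9 in Het_MI, 3.22 in KO_sham and 29.5 in Het_sham; each rests on 2 UMIs in KO_sham and 14 in Het_sham, too few for the list's median. Stmn2 stood at 213 CPM in KO_MI, 170.1 in Het_MI, 27.3 in KO_sham and 204 in Het_sham. Cxcl12, a chemokine of arterial endothelium that is held in the chemokine list, stood at 955 CPM in KO_MI, 819.5 in Het_MI, 61.1 in KO_sham and 1392 in Het_sham, in 24 cells of KO_MI, 14 of Het_MI, 14 of KO_sham and 17 of Het_sham. Its ratios were −4.51 [−5.02 to −4.04] for KO_sham over Het_sham and 3.97 [3.49 to 4.48] for KO_MI over KO_sham, and −3.59 and 2.86 by means over cells.

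These arterial values rest on few cells. In Het_sham, 1 cell held 62.1% of the Gja4, 76.3% of the Stmn2 and 54.9% of the Cxcl12 UMIs. Without the cells above 30000 UMIs the arterial median of KO_sham over Het_sham was −0.24, and by means over cells −0.46. In KO_MI over KO_sham it was 0.98 with 7 of 11 genes higher (7.29% of all genes), 0.75 without those cells and 0.55 by means over cells. Fewer arterial cells and less arterial RNA in each cannot be told apart with 2 cells of KO_sham and 5 of Het_sham that held a Gja4 UMI. Fbln2, another matrix gene of the list, was higher in both MI libraries than in both sham libraries, at 411 CPM in KO_MI, 388 in Het_MI, 90.0 in KO_sham and 90.5 in Het_sham. It too leans on few cells, since in each MI library 1 cell held 20% or more of its UMIs.

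**Figure D5:**
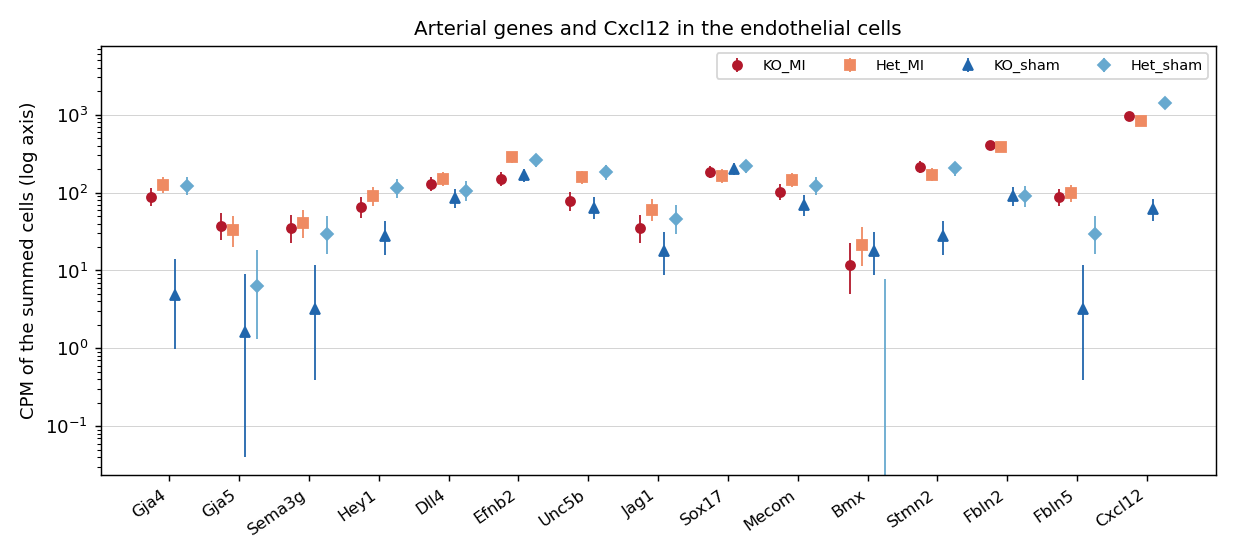
The levels of the 14 arterial genes and of Cxcl12 in the summed endothelial cells are drawn per library, in CPM on a log axis, with 95% Poisson intervals; Bmx had 0 UMIs in Het_sham and is not drawn there. KO_sham is the lowest library for Gja4, Hey1, Stmn2 and Cxcl12.

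Of 1616 genes open to naming in KO_sham over Het_sham, 33 had an interval beyond 1.5-fold (0.928% higher, 1.11% lower), and the 3 that did not rest on 1 cell were all higher in KO_sham. Tmem256 stood at 242 CPM in KO_MI, 189.8 in Het_MI, 231 in KO_sham and 105 in Het_sham (1.14 [0.66 to 1.63]; 0.61 without the cells above 30000 UMIs), with Het_sham low against all 3 other libraries. Tubb4b, a beta-tubulin, stood at 231 CPM in KO_MI, 209 in Het_MI, 344 in KO_sham and 168 in Het_sham (1.03 [0.65 to 1.42]; 0.14 by means over cells), and H2afv, a variant of histone H2A.Z, at 265 CPM in KO_MI, 276 in Het_MI, 349 in KO_sham and 173 in Het_sham (1.01 [0.64 to 1.40]; 0.53 by means over cells). Genes of the cell cycle were higher as well, 13 of 14 beside 8.06% of all genes, with a median of 1.62 and 0.63 by means over cells. Top2a, the topoisomerase of mitosis, stood at 102 CPM in KO_MI, 136 in Het_MI, 111 in KO_sham and 23.2 in Het_sham, in 11 cells of KO_MI, 5 of Het_MI, 8 of KO_sham and 7 of Het_sham. Mki67, the Ki-67 proliferation antigen, stood at 56.6 CPM in KO_MI, 113 in Het_MI, 158 in KO_sham and 25.3 in Het_sham, in 13 cells of KO_MI, 7 of Het_MI, 8 of KO_sham and 5 of Het_sham. In CPM Het_sham was lowest in both, but the share of cells with a Top2a UMI was 18.2% in KO_sham and 19.4% in Het_sham, so no order is read from it. In Het_MI over Het_sham the cell cycle median was 1.05, but −0.54 by means over cells, and 0.61 without the cells above 30000 UMIs. In KO_MI over KO_sham 9 of 14 genes were lower (11.4% of all genes), with a median of −0.91.

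Transcription factors that set endothelial identity were found in every library. Ets1, of the ETS family, stood at 522 CPM in KO_MI, 651 in Het_MI, 444 in KO_sham and 821 in Het_sham, and Erg, its relative that maintains vessel integrity, at 81.2 CPM in KO_MI, 88.3 in Het_MI, 91.6 in KO_sham and 160.0 in Het_sham. Sox18, a factor of vessel growth, stood at 79.8 CPM in KO_MI, 159 in Het_MI, 132 in KO_sham and 234 in Het_sham. All 3 were highest in Het_sham, and Erg and Sox18 lowest in KO_MI. Epas1, the hypoxia-inducible factor HIF-2alpha, stood at 479 CPM in KO_MI, 402 in Het_MI, 319.9 in KO_sham and 381 in Het_sham. In KO_sham over Het_sham the list had a median of −0.36 over 20 genes (1 higher, 4 lower, beside 8.06% and 13.4% of all genes), and in KO_MI over Het_MI 6 of 21 were lower, beside the 19.3% of all genes. Sox18 had ratios of −0.99 [−1.496 to −0.50] for KO_MI over Het_MI and −0.83 [−1.26 to −0.40] for KO_sham over Het_sham.

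Immediate early genes, which cells switch on within minutes of a stimulus, were present in all libraries. Junb, a subunit of AP-1, stood at 1181 CPM in KO_MI, 1947 in Het_MI, 1577 in KO_sham and 1232 in Het_sham, and Fos, its partner, at 596 CPM in KO_MI, 700.1 in Het_MI, 625 in KO_sham and 716 in Het_sham. The 12 genes of the list had medians of −0.24 for KO_MI over Het_MI, −0.03 for Het_MI over Het_sham, −0.04 for KO_MI over KO_sham and −0.19 for KO_sham over Het_sham. Hspa1a, the inducible heat shock protein Hsp70, stood at 210.3 CPM in KO_MI, 484 in Het_MI, 189.7 in KO_sham and 347 in Het_sham. Summed, it was lower in both KO libraries than in both Het libraries (−1.20 [−1.4996 to −0.91] for KO_MI over Het_MI, −0.87 [−1.23 to −0.52] for KO_sham over Het_sham). In Het_MI, however, a single cell held 20% or more of its UMIs. Klf2, a shear stress factor like Klf4, stood at 387 CPM in KO_MI, 321 in Het_MI, 403 in KO_sham and 343 in Het_sham, and Nos3, the endothelial nitric oxide synthase, at 87.0 CPM in KO_MI, 88.3 in Het_MI, 83.6 in KO_sham and 69.5 in Het_sham. Neither had an interval beyond 1.5-fold in any of the 4 comparisons.

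Of the Notch genes, Notch1, the main receptor of arterial fate, stood at 257 CPM in KO_MI, 359.9 in Het_MI, 238 in KO_sham and 265 in Het_sham, Dll4, its ligand, at 131 CPM in KO_MI, 149 in Het_MI, 85.2 in KO_sham and 105 in Het_sham, and Hes1, a target, at 258 CPM in KO_MI, 283 in Het_MI, 281 in KO_sham and 263 in Het_sham. In KO_MI over KO_sham 4 of 8 were higher (7.29% of all genes), with a median of 0.53; Hey1 and Dll4 are in the arterial list too. Apln, which encodes apelin and marks sprouting tip cells, stood at 40.6 CPM in KO_MI, 40.9 in Het_MI, 75.6 in KO_sham and 101 in Het_sham, lower in both MI libraries than in both sham libraries. Its ratios were −1.31 [−2.06 to −0.58] for Het_MI over Het_sham and −0.90 [−1.63 to −0.19] for KO_MI over KO_sham. Vegfc, the growth factor of lymphatic and coronary vessels, stood at 79.8 CPM in KO_MI, 73.6 in Het_MI, 9.65 in KO_sham and 56.9 in Het_sham, in 14 cells of KO_MI, 11 of Het_MI, 4 of KO_sham and 4 of Het_sham. Summed, KO_sham was lowest, as for the arterial genes, but the level of each sham library rests on 4 cells. Nr2f2 stood at 40.6 CPM in KO_MI, 108 in Het_MI, 53.0 in KO_sham and 23.2 in Het_sham, in 17 cells of KO_MI, 8 of Het_MI, 10 of KO_sham and 7 of Het_sham, so Het_MI had the highest level from few cells.

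Chemokines other than Cxcl12 were carried by some of the cells. Cxcl1, which attracts neutrophils, stood at 91.4 CPM in KO_MI, 119 in Het_MI, 109 in KO_sham and 105 in Het_sham, in 18 cells of KO_MI, 12 of Het_MI, 14 of KO_sham and 9 of Het_sham. Cxcl2, of the same family, stood at 164 CPM in KO_MI, 131 in Het_MI, 182 in KO_sham and 48.4 in Het_sham, with 1 cell holding 49.6% of its UMIs in KO_sham. Nfkbia, the inhibitor and target of NF-kappaB, stood at 689 CPM in KO_MI, 1026 in Het_MI, 659 in KO_sham and 625 in Het_sham, highest in Het_MI (0.71 [0.51 to 0.92] over Het_sham). The NF-kappaB list had a median of 0.22 over 7 genes in that comparison and −0.03 over 6 in KO_MI over KO_sham.

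Endothelium recruits leukocytes through adhesion molecules and selectins. Icam1, an adhesion molecule, stood at 222 CPM in KO_MI, 232 in Het_MI, 203 in KO_sham and 139 in Het_sham, lowest in Het_sham (0.74 [0.31 to 1.18] for Het_MI over Het_sham). Vcam1, another, stood at 33.4 CPM in KO_MI, 11.5 in Het_MI, 12.9 in KO_sham and 0 in Het_sham, from 23, 7, 8 and 0 UMIs, with ratios of 1.54 [0.28 to 3.01] for KO_MI over Het_MI and 1.38 [0.16 to 2.75] for KO_MI over KO_sham. Sele and Selp, the selectins E and P, had 32 and 24 UMIs in all, those of Selp in 3 cells of KO_MI. The adhesion list had medians of 0.17, −0.31, 0.13 and −0.22 for KO_MI over Het_MI, Het_MI over Het_sham, KO_MI over KO_sham and KO_sham over Het_sham, over 5 or 6 genes. MHC class II genes summed to 58.0 CPM in KO_MI, 17.99 in Het_MI, 24.1 in KO_sham and 16.8 in Het_sham, against 3210.2 CPM in the other cells, and none of the 9 reached 30 UMIs.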

How the data were processed

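Live CD45-positive heart cells were measured by 3' single-cell RNA sequencing (10x Genomics) in 4 libraries, 1 per group. Per the submitters' processing notes the authors used Cell Ranger 6.1.1 and Seurat 4, with mm10 and GRCm38 named as builds, whereas per the file headers the version of Cell Ranger was 4.0.0. Each deposited matrix gives unnormalised UMI counts for each gene and barcode, as the authors' counting step wrote them. How cells were called is not given in the sources used here.

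The members, the 40 gene lists, the tests and the rule for named genes were chosen with earlier results of these data known. The libraries held 52701847 to 72002420 UMIs. UMIs of the endothelial cells were summed per library and divided by their total (CPM). Counts carry exact Poisson intervals, shares exact Clopper-Pearson intervals and ratios exact conditional binomial intervals at 95% (scipy 1.17.1); all cover counting error only. The ratio and its interval were checked on simulated counts. For ratios, 0 UMIs were replaced by a floor of 3. A list's median is over genes with at least 30 UMIs in both libraries together. With 1 library per group no test and no p-value is given.

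A gene was named in a comparison if it had at least 100 UMIs in both libraries together, an interval beyond 1.5-fold, 50 CPM in the higher one, no cell with 20% or more of the UMIs of the higher library, and an endothelial level of at least 50% of that in the other cells. Mitochondrial, ribosomal, haemoglobin, sex-linked, receptor segment and unnamed genes were left out. Beside these, the list members with the most UMIs and the most extreme ratios are named; Cxcl12, Stmn2, Iigp1, Jarid2, Fbln2 and other genes whose levels are set across all 4 libraries were singled out with their values seen. Against the other cells, the 20 highest ratios at 100 CPM and 20 cells or more are named.

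Clusters of endothelial cells came from the Leiden method, resolution 0.5 (scanpy 1.11.5; 1500 variable genes, 15 principal components, 10 neighbours). Scrublet's automatic threshold called 6, 1, 0 and 139 cells in KO_MI, Het_MI, KO_sham and Het_sham, under 0.5% in 3 libraries, so doublets were kept; at the expected rate (0.8% per 1000 barcodes) it called 5, 0, 3 and 2 endothelial cells. Alternatives were the marker, C1q and mitochondrial limits, those doublet calls, cells with a Ptprc UMI, Xist cells only, scaling by the trimmed mean of M-values (edgeR 4.0.16) or by median-of-ratios size factors, means over cells, and the count minimum for lists. Gene positions are from GENCODE M21 on GRCm38, where 32235 of 32285 identifiers matched.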

Additional observations from a re-analysis of the deposited data

Results flagged for a closer look

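The difference between KO and Het had opposite signs after MI and after sham surgery in 5 lists, by at least 1.5-fold over genes measured in both; with 1 library per group none of these differences was tested, and over all 4721 genes the median difference was −0.05. For the class I list the median log2 ratio of KO over Het was 0.41 after MI and −0.46 after sham surgery over 9 genes, a median difference of 0.66. Over the 13 genes measured in the MI libraries the median was 1.14. The median after sham surgery ran from −0.48 to 0.21 and kept its sign in 15 of 16 alternatives. For the type I interferon list the median ratio was 0.02 and −1.22 over 7 genes, a difference of 1.27. Over the 8 genes measured in the MI libraries the median was −0.077, so the sign after MI depends on the genes taken. After sham surgery the median was −0.03 by means over cells, and 1 cell of Het_sham held 52.3% of the list's UMIs. For the cell cycle list it was −0.34 and 1.66 over 13 genes, a difference of −1.91. RNA of other cell types did so too, with 4.95 over 6 pan-leukocyte genes and 1.74 over 6 cardiomyocyte genes. The part of leukocyte RNA, and of the sex of the animals, in the class I difference was not tested.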

How the results depend on the processing

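The class I median kept its sign in all 16 alternatives for KO_MI over Het_MI (0.60 to 1.33) and for KO_MI over KO_sham (1.10 to 1.53). Settings on deep cells, leukocyte and haemoglobin RNA and cluster resolution were chosen after seeing the data. With Xist cells only, share ratios were 14.3 (KO_MI over Het_MI), 0.397 (Het_MI over Het_sham), 3.38 (KO_MI over KO_sham) and 1.68 (KO_sham over Het_sham). Here endothelial Xist cells were counted against all kept cells, of either sex, so these ratios carry the mix of sexes in each library. Xist RNA with no Y-linked UMI was found in 6333 of 7041 other cells of KO_MI and 729 of 5042 of Het_MI. With Xist cells only, class I in KO_sham over Het_sham was 0.21, interferon-gamma 0.22 and cell cycle in KO_MI over KO_sham 0.19. Without cells above 30000 UMIs class I was −0.17 in KO_sham over Het_sham (−0.080 without leukocyte-rich cells as well) and −0.36 in Het_MI over Het_sham. Endothelial chemokines in KO_sham over Het_sham were −0.11 without Ptprc cells and −0.41 without deep cells, against 1.25. Cell cycle in Het_MI over Het_sham was −0.54 by means over cells. The cause of these shifts was not tested. Of 183 alternative values of list medians past 1.5-fold, 5 turned sign, and of 1359 of medians nearer 0, 223 did. No paired analysis was possible because each group has 1 library. List medians leave out genes under 30 UMIs.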
